A study of Mus musculus with 15 samples.

Results

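The R2_KO library, made from erythroid cells that lack the regulatory element R2 of the mouse α-globin locus, was compared with the libraries of the other 4 single deletions, R1_KO, R3_KO, Rm_KO and R4_KO. R2_KO is 1 of 5 single-deletion libraries and 1 of 15 samples in the study, chosen by the deletion its label names. All 5 came from cultured fetal liver cells of E12.5 F1 C57Bl6/CBA embryos. The cells were expanded for 5 to 7 days with erythropoietin, stem cell factor and dexamethasone, cleared of Ter119-positive mature red cells, and differentiated for 18 hours in high erythropoietin. The libraries differ in the deleted element only, as far as the sample labels say, and the sources used here do not give how many embryos went into each. The count header names R1_KO as R1-r-cap and the others as R2-cap, R3-cap, Rm-cap and R4-cap, and the labels do not explain the r. Each deletion has 1 library, so no difference between them could be tested and none has a replicate check. Beside them stand R1R2_KO and R2R3_KO, which lack R2 together with R1 or R3, and control cells with no deletion named, with 3 libraries each, and 1 library of E14 embryonic stem (ES) cells. Contact data hold no expression, so the erythroid identity of the cultures was not checked against markers.

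The α-globin genes are switched on in red cell precursors by a group of upstream enhancer-like elements, R1, R2, R3, Rm and R4, several of which lie in introns of the neighbouring gene Nprl3, a subunit of the GATOR1 complex. The elements bind erythroid transcription factors such as GATA1 and come close to the α-globin promoters in space in erythroid cells. NG Capture-C measures such proximity: crosslinked chromatin is cut with the enzyme DpnII, neighbouring ends are ligated, and ligation products of chosen promoters are enriched with oligonucleotides. Each DpnII fragment then has a count of reads that join it to the promoter, called a viewpoint. The viewpoints were Hba, the pair of adult α-globin genes (Hba-a1, Hba-a2), and 2 promoters at which no element was deleted. These untargeted viewpoints were Hbb, the adult β-globin genes, and Slc25a37, which encodes a mitochondrial iron importer of red cell precursors.

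The α-globin promoter is shown because every Hba contact value below is a contact with it. The 250 bases before the start of Hba-a1 (GRCm38.p6, chr11:32283422-32283671, plus strand, from RefSeq) are given 5′ to 3′, with the match to GATAAG, the core of a GATA1 motif, in capitals.
Hba-a1: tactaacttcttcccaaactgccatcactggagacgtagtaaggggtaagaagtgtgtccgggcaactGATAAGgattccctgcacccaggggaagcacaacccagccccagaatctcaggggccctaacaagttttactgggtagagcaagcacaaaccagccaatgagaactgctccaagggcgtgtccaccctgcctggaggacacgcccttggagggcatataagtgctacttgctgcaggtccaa
The window of Hba-a2 shifts by 3 bases and matches over 247 of 247 aligned bases, and the 2 copies were captured and tabulated as 1 viewpoint. GATAAG was searched on both strands, and 6.55% of 32851 RefSeq promoter windows of this length hold it. The window holds 0 GATC sites, the letters DpnII cuts, while 41.9% of the windows hold at least 1.

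Contacts are given as reads per 100000 reads on the viewpoint's chromosome more than 2 kb from the captured fragments. All positions of fragments and regions are in mm9, and region limits are approximate. The tables list 2179 fragments in the α-globin window, chr11:31700060-32699946. R2_KO was the shallowest of the 5 libraries at each viewpoint, with 386214 reads at Hba against 607413 to 713934 in the others, 243961 at Hbb against 338771 to 470262, and 109588 at Slc25a37 against 184468 to 221235. It also had the largest share of reads on the viewpoint's own chromosome: 68.7% at Hba against 54.3% to 62.9%, 62.8% at Hbb against 50.2% to 55.7%, and 69.05% at Slc25a37 against 57.2% to 62.4%. Control libraries at Hba spanned 61.1% to 71.99%. Control and the double deletions stand in other tables than the single deletions, and the part of the tabulation in any value set across them was not tested. R1_KO was the lowest of the carrying libraries at R2, R3, Rm, R4 and the cluster, so averages of the others are also given without it where that matters.

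The deleted element itself was strongly reduced in the R2_KO library. The R2 block spans 3 fragments, chr11:32150268-32151881, which were chosen from the double deletions and not from the single ones. It had 399.2 reads per 100000 in R2_KO (939 reads, exact Poisson 95% interval 374 to 426). It had 1724 in R1_KO, 2073 in R3_KO, 2296 in Rm_KO and 2081 in R4_KO. R2_KO was below every other single deletion, at 19.5% of their mean (counting interval 18.3% to 20.8%), a log2 ratio of -2.36. The 3 controls had 1848, 2252 and 2205, and ES cells, which carry R2, had 449.4. Intervals here cover counting error only and leave out variation between replicate libraries. They treat reads as independent molecules, which was not tested.

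The remaining R2 contact was unevenly spread over the 3 fragments. At chr11:32150623-32151061, R2_KO had 46.3 reads per 100000 (109 reads), against 555.0 in R1_KO, 712.9 in R3_KO, 759.3 in Rm_KO and 723.0 in R4_KO, or 6.74% of their mean. At chr11:32151062-32151881, R2_KO had 56.1 (132 reads), against 652.1, 759.3, 845.6 and 699.3 in the same libraries, or 7.59%. At chr11:32150268-32150622, the fragment farthest from the globin genes, R2_KO had 296.7 (698 reads), against 517.3, 600.8, 691.5 and 659.2, or 48.1%. This edge fragment was less reduced than the other fragments of the block. The double deletions had less there, with 159.0, 149.1 and 163.3 in R1R2_KO and 199.1, 210.1 and 210.1 in R2R3_KO, against 524.7, 697.8 and 649.5 in control. ES cells had 145.9 at the edge fragment, 141.8 at the middle one and 161.8 at the last, an even profile below that of R2_KO at the edge and above it at the others. In the replicated libraries, the middle fragment had 22, 15 and 22 reads in R1R2_KO and 0, 0 and 0 reads in R2R3_KO, against 463, 540 and 537 in control. The last fragment had 13, 32 and 30 reads in R1R2_KO and 2, 3 and 3 in R2R3_KO. A low but nonzero count there was thus shared by R2_KO and R1R2_KO, and R2R3_KO was lower. Where the deletion ends and what produced the remaining reads were not tested.

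Of the other 4 elements, R1, Rm and R4 were higher in R2_KO than in each library that carries them, and R3 was inside the range of its carriers. This holds for reads scaled to the chromosome. Relative to the untargeted viewpoints, described further on, all 4 had log2 ratios below 0, R4 only slightly, at -0.03. R1, the outermost element, at chr11:32144385-32146566, had 1252 reads per 100000 in R2_KO, against 1105 in R3_KO, 1108 in Rm_KO and 1074 in R4_KO. That is 1.14-fold their mean (log2 0.19, counting interval 0.13 to 0.25), and R2_KO also lay above the 3 controls, at 1085, 1072 and 1111. Rm, at chr11:32164968-32166169, had 1370 in R2_KO, against 1044 in R1_KO, 1270 in R3_KO and 1207 in R4_KO. The fold was 1.17 (log2 0.22), and the controls were again lower, at 1205, 1216 and 1328. R4, the element nearest the globin genes, at chr11:32168682-32169921, had 2403 in R2_KO, against 1758 in R1_KO, 2055 in R3_KO and 2020 in Rm_KO. Its fold was 1.24 (log2 0.31). Control libraries spread more at R4 than the single deletions did, at 1855, 2389 and 2425, so R2_KO was within the control range there. R3, at chr11:32155867-32157248, had 1352 in R2_KO, against 1046 in R1_KO, 1573 in Rm_KO and 1363 in R4_KO, and 1350 to 1404 in control. R2_KO was inside the range of the others at R3 (fold 1.02). The R3 value turned with the choice of library, with a log2 ratio of -0.12 without R1_KO and 0.17 without Rm_KO.

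**Figure D1:**
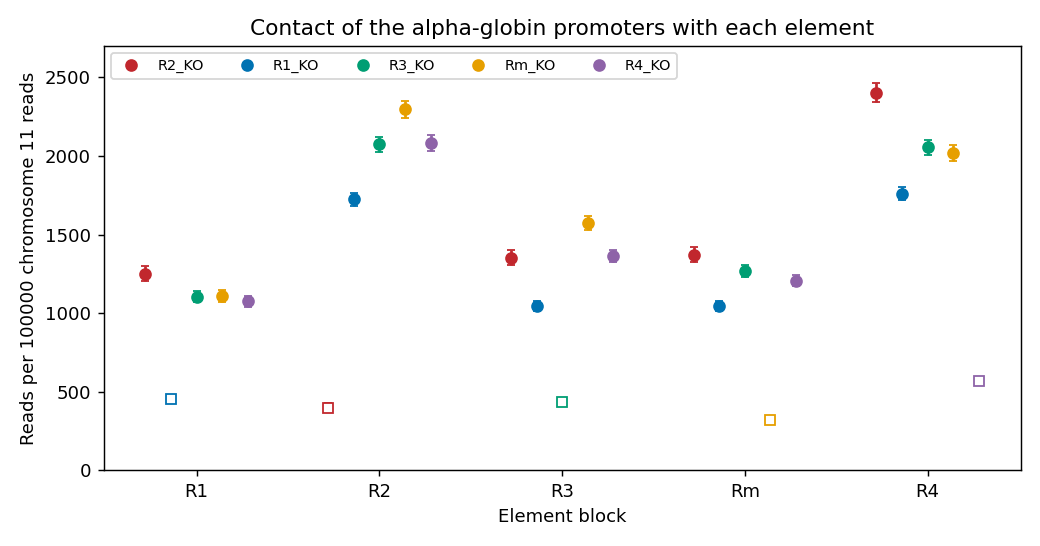
Reads per 100000 chromosome 11 reads (y axis) at the 5 element blocks (x axis), with R2_KO first and then the other single deletions as points, exact Poisson 95% intervals as bars and open squares for the library lacking the element. R2_KO lies at 399.2 at R2, against 1724 to 2296 in the other single deletions, and above each library carrying the element at R1, Rm and R4.

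Summed over whole blocks, the depletion of R2 in R2_KO was deeper than that of the other elements in their own libraries. The element's contact was at 19.5% of the mean of the others in R2_KO, while R1_KO kept 40.2% at R1, R3_KO 32.5% at R3, Rm_KO 26.2% at Rm and R4_KO 27.4% at R4. The blocks of R1, R3, Rm and R4 were chosen in these same libraries as fragments below 50%, so their percentages are a description. They also mix fragments of unlike depletion. In the Rm block, Rm_KO had 43.8 at chr11:32165529-32165889, against 392.4 to 544.1 in the other single deletions. At chr11:32165890-32166169 it had 233.4, against 434.7 to 580.7. The mean log2 ratio over the 4 elements each library keeps was 0.19 in R2_KO, against -0.34 in R1_KO, 0.01 in R3_KO, 0.12 in Rm_KO and -0.01 in R4_KO. R2_KO had the highest of these values and R1_KO the lowest. The order changed with the mean log2 ratio of 2 untargeted regions subtracted: R2_KO then had -0.14, against -0.17 in R1_KO, 0.01 in R3_KO, 0.16 in Rm_KO and 0.13 in R4_KO. As shares of all reads in the enhancer cluster, the R2 block took 1.66% in R2_KO, against 8.14% to 8.94% in the others, and R4 took 10.0% in R2_KO, against 7.87% to 8.66% in the carriers. The cluster outside the blocks took 71.8% in R2_KO, against 70.8% to 73.2%. Scaled to the cluster reads outside the elements, the log2 ratios in R2_KO were 0.21 for R1, 0.15 for Rm, 0.26 for R4 and 0.01 for R3.

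Around R2, contact was lower in R2_KO over a stretch wider than the element, and how many fragments this took in depended on the scale. The cluster holds 54 tested fragments outside the blocks, chr11:32139865-32170701, and R2_KO was below each of the other 4 libraries in 14 and above each in 18. Over all 385 tested fragments of the window outside the blocks, those shares were 15.8% below and 33.2% above. Of the 16 fragments within 3 kb of R2, 10 were below every other library and 0 above, with a median fold of 0.81. The 10 became 2 when scaled to all reads and 3 when scaled to chromosome reads outside the named regions. More than 3 kb upstream of R2, 0 of 10 fragments were below and 5 above, with a median fold of 1.13. The highest fold there, 1.34 at chr11:32146567-32146860, adjoins the R1 block, and the mean of the others includes R1_KO. R1_KO was the lowest library at 327.8, against 505.2 to 570.9 in R3_KO, Rm_KO and R4_KO. From 3 to 10 kb downstream the counts were 3 below and 2 above of 13, at a median of 1.00. Farther downstream, towards the globin genes, 1 was below and 11 above of 15, at a median of 1.19. Runs of adjacent fragments were cut wherever R2_KO changed its position against the range of the others. All fragments of a run thus share a position by definition. The longest run below held 13 fragments, chr11:32148903-32153291, the 3 R2 fragments among them, with folds of 0.63 to 0.85 outside the block. The longest run above held 10 fragments, chr11:32162538-32167509, around Rm, with folds of 1.13 to 1.41. Of these, 7 lie outside the Rm block, where the mean of the others includes Rm_KO. At the highest fold, chr11:32167110-32167265, Rm_KO was the lowest library at 142.7, against 178.3 to 213.6 in R1_KO, R3_KO and R4_KO.

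**Figure D2:**
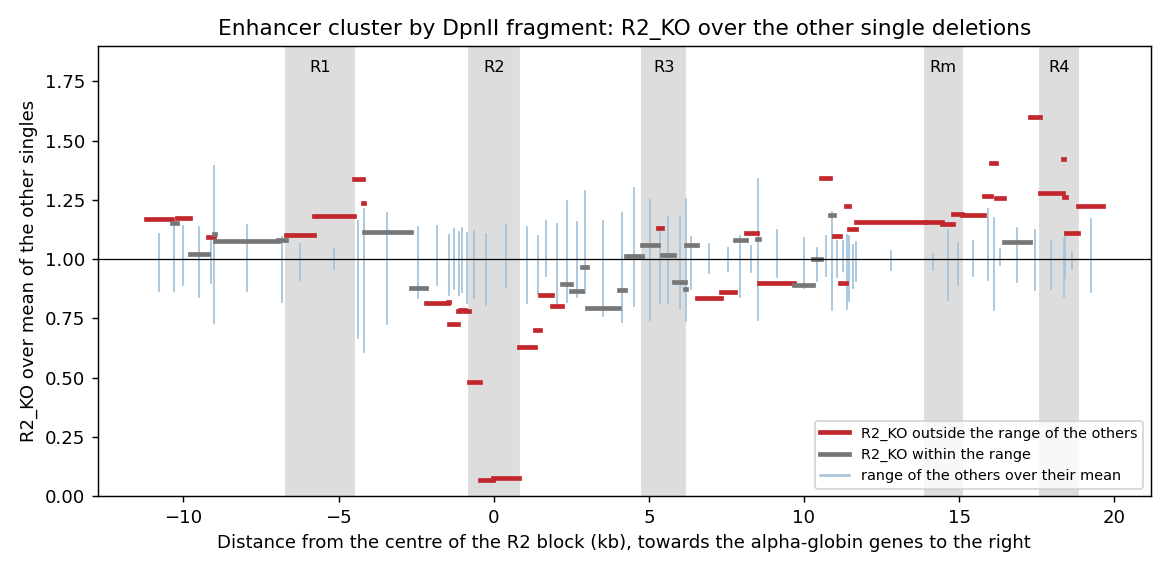
Fold of R2_KO over the mean of the other single deletions (y axis) for each DpnII fragment of the cluster as a horizontal line, red where R2_KO is outside the range of the others (thin blue lines), by distance from the centre of the R2 block in kb (x axis), with the globin genes to the right and the element blocks shaded. Folds dip on both sides of R2, to 0.63 outside the block, and lie mostly above 1 more than 10 kb downstream, where the median is 1.19.

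The 8 fragments within 1 kb of the R2 block had 2134 reads per 100000 in R2_KO, against a mean of 2877 and a range of 2495 to 3190 in the others. The fold was 0.74 (log2 -0.43, counting interval -0.47 to -0.39), with 0.76 on the upstream side and 0.72 on the downstream side. From 1 to 3 kb away it was 0.91, inside the range of the others, and from 3 to 5 kb it was 1.11, also inside. The sides differed at these distances. From 1 to 3 kb the fold was 0.97 upstream, inside the range, and 0.85 downstream, below all the others. From 3 to 5 kb it was 1.32 upstream, above all the others, and 0.95 downstream, inside the range. The fragments 3 to 5 kb upstream adjoin R1, and R1_KO was the lowest library there, at 405.9. The same 8 fragments were low in the replicated double deletions, in which the whole cluster was also low. The 8 had 1422, 1581 and 1631 in R1R2_KO, and 1991, 1823 and 1743 in R2R3_KO, against 3085, 3304 and 3316 in control. The groups did not overlap. The folds were 0.48 for R1R2_KO (1544 ± 109, SD, n = 3) and 0.57 for R2R3_KO (1852 ± 126, SD, n = 3), over the control mean of 3235 ± 130 (SD, n = 3). The two-sided exact permutation test gave p = 0.1 for each, the smallest it allows with 3 against 3 libraries, and both comparisons share the controls. The cluster outside the blocks had 11606 ± 423 in R1R2_KO and 13761 ± 218 in R2R3_KO, against 18898 ± 271 in control (SD, n = 3 each), folds of 0.61 and 0.73. As a share of those cluster reads, the 8 fragments took 13.3% ± 0.61 in R1R2_KO and 13.5% ± 0.74 in R2R3_KO, against 17.1% ± 0.46 in control (SD, n = 3 each), folds of 0.78 and 0.79. These shares did not overlap with control either, and their exact permutation p was again 0.1, the smallest possible. In R2_KO, whose cluster sum was inside the range of the other single deletions, the log2 ratio of the 8 fragments was -0.46 when scaled to the cluster. A dip beside the deleted element was also measured in other libraries. Within 1 kb of its own element, the fold was 0.62 in R1_KO, 0.92 in R3_KO, 0.86 in Rm_KO and 0.80 in R4_KO, and R3_KO was inside the range of the others there. These flanks are unlike that of R2. They held 3 fragments at R1, 5 at R3, 3 at R4 and only 2 at Rm, on the downstream side alone. They also begin at the edges of blocks chosen in these same libraries.

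**Figure D3:**
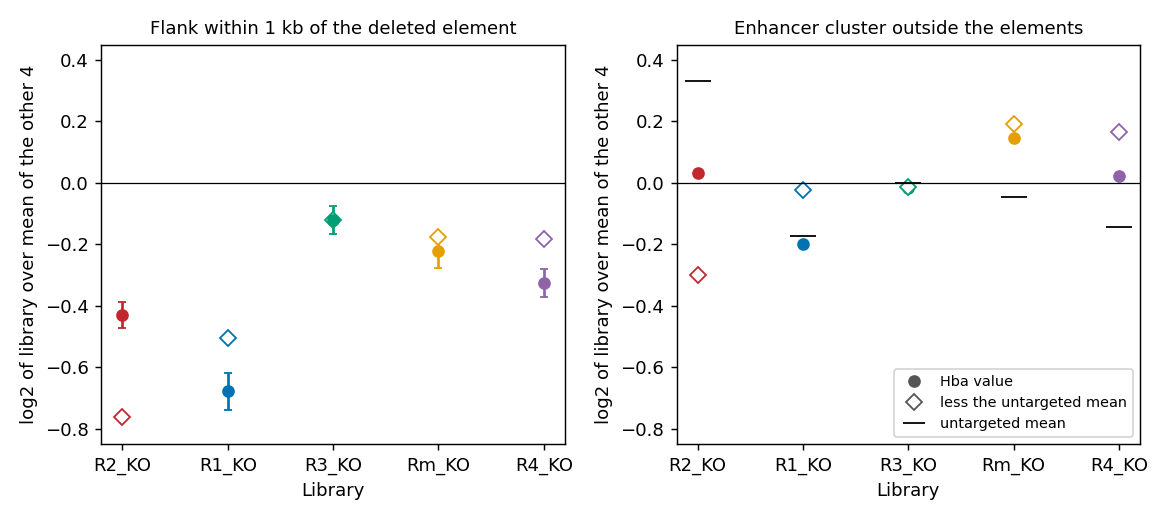
Log2 ratio of each library to the mean of the other 4 (y axis) for R2_KO, R1_KO, R3_KO, Rm_KO and R4_KO (x axis), within 1 kb of the deleted element (left, bars are counting intervals) and over the cluster (right), as filled points, with the untargeted mean subtracted as open diamonds and that mean itself as black dashes. R2_KO has -0.43 beside its element and 0.03 over the cluster, and its untargeted mean of 0.33 is above those of the other libraries.

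Summed over the cluster, these differences nearly cancelled. The 54 fragments outside the blocks had 17245 reads per 100000 in R2_KO, against 15163 in R1_KO, 16801 in R3_KO, 18358 in Rm_KO and 17152 in R4_KO. R2_KO was inside their range, with a fold of 1.02 (log2 0.03), or a log2 ratio of -0.02 without R1_KO. It was at 91.3% of the control mean of 18898 ± 271 (SD, n = 3), while ES cells had 6214. The region of the α-globin genes themselves, chr11:32170702-32204979 without the captured fragments, had 24485 in R2_KO, against 23107 in R1_KO, 23253 in R3_KO, 23526 in Rm_KO and 21081 in R4_KO. R2_KO was above all 4 by a small margin (fold 1.08), and the control mean was 22774 ± 1565 (SD, n = 3). Of the 52 tested fragments there, 26 were above each of the others and 6 below. Over all 385 tested fragments of the window outside the blocks, 33.2% were above and 15.8% below. At the untargeted viewpoints the shares were 36.7% above and 13.1% below for Hbb, and 49.8% and 8.6% for Slc25a37. The count is thus not particular to the gene region.

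Beyond the cluster and the genes, 2 of 5 flanking regions were outside the range of the others. The upstream gene region, chr11:32080071-32139864, had 10347 reads per 100000 in R2_KO, against 8620 to 9475 in the others (fold 1.13). By gene order in GRCm38.p6, the neighbours of Nprl3 on that side are Mpg, a DNA repair glycosylase, Rhbdf1, an inactive rhomboid protein, and Snrnp25, a protein of the minor spliceosome. The outer upstream region, chr11:31700060-31949954, had 3101 in R2_KO, against 2790 to 3095, so its excess over the highest of the others was very small. The far upstream region had 1513 against 1322 to 1619, the downstream region 6196 against 5690 to 6936, and the outer downstream region 2394 against 2060 to 2904. These 3 were inside the range.

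The untargeted promoters had higher contact with their own main partner regions in R2_KO. The Hbb locus control region, the distant enhancer group of the β-globin genes, at chr7:110994810-111023773, had 28526 reads per 100000 chromosome 7 reads in R2_KO. It had 21404 in R1_KO, 23610 in R3_KO, 23690 in Rm_KO and 21224 in R4_KO, and the fold was 1.27 (log2 0.34). The 3 controls had 23974 to 27040, also below R2_KO. The region upstream of Slc25a37, chr14:69906474-69959889, had 38138 in R2_KO, against 29228 in R1_KO, 32139 in R3_KO, 30477 in Rm_KO and 30457 in R4_KO. The fold was 1.25 (log2 0.32), and here R2_KO was within the control range of 34623 to 40645. In all, 4 of 9 untargeted regions were outside the range of the others, each of them higher in R2_KO. The other such regions were the embryonic β-like genes, with a fold of 1.09, and the Slc25a37 gene body, with 1.12. Both turned when scaled to reads within 500 kb, with log2 ratios of -0.046 and -0.047. The count became 7 of 9 on that scale, and 8 of 9 by all reads or by chromosome reads outside the named regions. By reads within 500 kb, only the locus control region (0.18) and the Slc25a37 upstream region (0.11) had positive log2 ratios. Most of those 7 regions were thus lower in R2_KO. Scaled to the chromosome, the remaining 5 regions had log2 ratios of -0.18 to 0.13, inside the range of the others.

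**Figure D4:**
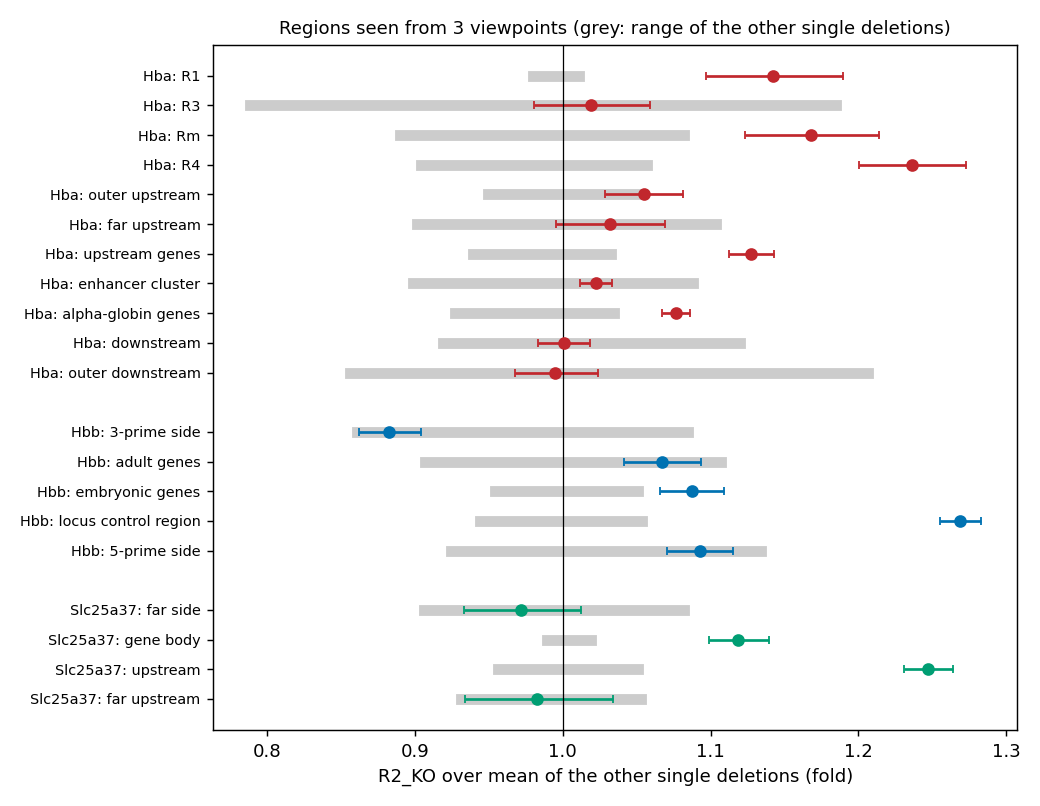
Fold of R2_KO over the mean of the other single deletions (x axis, points with counting intervals) for each region seen from the 3 viewpoints (y axis), R2 left out, with the range of the other libraries over their mean in grey. The Hbb locus control region (1.27), the Slc25a37 upstream region (1.25) and R4 (1.24) lie highest, while the cluster (1.02) lies inside its grey range.

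Relative to the main partner regions of the untargeted viewpoints, the α-globin cluster and gene region were lower in R2_KO. The yardstick was the locus control region and the Slc25a37 upstream region, which had the highest ratios of the 9 untargeted regions. The other 7 had log2 ratios of -0.18 to 0.16, and the cluster's 0.03 lies inside that span. The mean log2 ratio of the 2 untargeted regions was 0.33 in R2_KO, against -0.17 in R1_KO, 0.00 in R3_KO, -0.05 in Rm_KO and -0.14 in R4_KO. With that mean subtracted, the cluster had a log2 ratio of -0.30 in R2_KO (counting interval -0.32 to -0.28), against -0.02 in R1_KO, -0.01 in R3_KO, 0.19 in Rm_KO and 0.17 in R4_KO. The α-globin gene region had -0.22 in R2_KO, against 0.17, 0.01, 0.08 and -0.02 in the same libraries. R2_KO was the lowest library in both. On this scale the other elements had values below 0, with -0.14 at R1, -0.30 at R3, -0.11 at Rm and -0.03 at R4, and the fragments within 1 kb of R2 had -0.76. Values below 0 at the elements were not particular to R2_KO: R1_KO had -0.14 at R2, -0.28 at R3, -0.12 at Rm and -0.12 at R4. The sign thus depended on the yardstick for R1, R3, Rm, R4, the cluster sum and the gene region. It did not for R2 or its immediate flank. For R3 and R4, 1 of the 2 signs was within counting error. R3 scaled to the chromosome was 0.03 (counting interval -0.03 to 0.08). The counting interval of R4 on that scale, 0.26 to 0.35, takes in the subtracted 0.33.

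By distance, R2_KO had fewer of its reads over 5 Mb away and on other chromosomes at all 3 promoters, while nearer bands differed between viewpoints. Contacts over 5 Mb away took 21.2% of Hba chromosome reads in R2_KO, against 22.9% to 26.8% in the others, 28.8% at Hbb against 32.9% to 36.9%, and 21.6% at Slc25a37 against 28.0% to 29.7%. Reads on other chromosomes took 33.9% of the Hba reads outside the 2 kb zone in R2_KO, against 39.9% to 48.3%, 39.4% at Hbb against 46.5% to 51.7%, and 32.8% at Slc25a37 against 39.2% to 44.7%. From 0.5 to 5 Mb, R2_KO was above the others at Hba (6.44% against 5.60% to 6.39%), inside their range at Hbb (12.02% against 11.8% to 13.5%) and below them at Slc25a37 (10.5% against 11.9% to 12.7%). From 2 to 10 kb it was above them at Hba (25.2% against 21.7% to 24.1%) and Slc25a37 (17.5% against 14.4% to 15.8%) and inside their range at Hbb (10.2% against 8.78% to 10.4%). The band from 10 to 50 kb, which holds the enhancer cluster, the locus control region and most of the Slc25a37 upstream region, differed between viewpoints. It took 36.8% in R2_KO at Hbb, against 29.2% to 31.7%, and 41.0% at Slc25a37, against 32.8% to 34.9%. At Hba it took 31.6%, inside the range of 28.9% to 33.1%, and 24.8% against a mean of 24.0% with the element blocks left out. Taking reads within 500 kb as the scale leaves the farther reads out of it. The log2 ratio was then 0.18 instead of 0.34 at the locus control region and 0.11 instead of 0.32 upstream of Slc25a37. At the cluster it was -0.04 instead of 0.03. Apart from such rescaling, the part of the far and between-chromosome reads in the fold of any region was not tested.

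Single fragments were called where R2_KO was outside the range of the other 4 libraries and at least 1.5-fold from their mean. At Hba, 13 of 385 fragments were called lower (3.38%) and 35 higher (9.09%), and the same rule called 23 to 40 fragments for each other library in turn. The minimum of 250 reads counts R2_KO too, so fragments near it pass more readily where R2_KO is high. With a minimum of 100 reads, 78 were lower and 91 higher, so the balance of the 2 directions depends on the minimum. At Hbb, 19 of 297 were lower (6.4%) and 19 higher (6.4%), and at Slc25a37 5 of 221 were lower (2.26%) and 21 higher (9.5%). In each direction the α-globin share lay between those of the 2 promoters with no deleted element. Without the fold limit, R2_KO was below each of the other libraries in 13.1% of tested fragments at Hbb and above each in 36.7%, and in 8.6% and 49.8% at Slc25a37. Of the cluster's 54 fragments, 1 was called lower and 1 higher. The lower one, chr11:32151882-32152404, adjoins the R2 block and had 379.2 reads per 100000 in R2_KO (892 reads), against 491.0 in R1_KO, 623.2 in R3_KO, 685.4 in Rm_KO and 611.5 in R4_KO (fold 0.63). The higher one, chr11:32168371-32168681, adjoins the R4 block and had 827.7 in R2_KO, against 520.5 in R1_KO, 579.8 in R3_KO, 516.4 in Rm_KO and 450.6 in R4_KO, which lacks R4 (fold 1.60).

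Outside the cluster, the 12 fragments called lower had 18 to 74 reads in R2_KO, with a median of 30, and the 34 called higher had 57 to 584, with a median of 77. Of these, 2 lower and 18 higher calls lay in the upstream gene region. The other 9 of the 10 lowest had 18 to 46 reads in R2_KO. The lowest were chr11:32075740-32076600 in the far upstream region, at a fold of 0.35 with 18 reads, and chr11:31777256-31778013 in the outer upstream region, at 0.45 with 18 reads. Of the highest, chr11:32083719-32083889 in the upstream gene region had 93.9 reads per 100000 in R2_KO (221 reads), against a mean of 37.8 in the others (fold 2.48). In the same region, chr11:32130255-32130359 had a fold of 1.91 with 164 reads and chr11:32100298-32100753 a fold of 1.81 with 214 reads, and the region holds 140 of the tested fragments. In the window, the rest of the 10 highest had 60 to 73 reads and folds of 1.74 to 2.22. Most of these were close to the minimum of 250 reads over the 5 libraries, which their R2_KO reads helped them to pass. At chr11:31744758-31744988, R2_KO had 60 reads, beside 52 in R1_KO, 56 in R3_KO, 25 in Rm_KO and 57 in R4_KO. At Hbb the lowest call was chr7:110919567-110919958 (fold 0.33) and the highest chr7:111046642-111046975 (2.80). At Slc25a37 they were chr14:69851990-69852482 (0.56) and chr14:69934535-69934598 (1.93).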

How the data were processed

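The authors deposited raw read counts per DpnII fragment in mm9, not scaled to depth, per the file headers. Trim Galore and Bowtie were used, per the submitters' processing notes. The sources used here give neither their versions nor how reads that fit both Hba copies were counted. Tables of the double deletions also hold 7 columns each with no matching sample, which were left out.

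Counts were divided by the reads on the viewpoint's chromosome more than 2 kb from the gaps the tables leave at the captured promoters. The R2 block is the fragments within 5 kb of R2 under 50% of the control mean in each R1R2_KO and R2R3_KO library. Blocks of the other elements are adjoining fragments that, in the library lacking the element, had under 50% of the average of the other single deletions. At the element blocks, means of the others leave out the library lacking the element. For all other fragments and regions they hold all 4 other libraries. Fragments needed 250 reads over the 5 libraries, R2_KO included. Named fragments are the R2 fragments and the 10 lowest and 10 highest called at Hba, and the 3 lowest and 3 highest elsewhere, of which some are printed. Levels have exact Poisson intervals, log2 ratios counting intervals and shares Wilson intervals, all at 95%. Lists and rules were chosen with earlier results of these data known. Gene order and the promoter come from RefSeq tables of GRCm38.p6, and enhancer sequences are not shown here. Python 3.11.15 with scipy 1.17.1 and pandas 2.3.3 was used, and the code was tested on simulated data. Alternatives were other scales, a 5 kb exclusion zone, 5 kb bins, other read minimums, a 2-fold rule and leaving out each library. The labels call the 3 libraries of a group biological replicates, without saying whether litters were separate.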

Additional observations from a re-analysis of the deposited data

How the results depend on the processing

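Of 272 values recomputed, 126 moved by less than the counting interval, or, for counts, by less than 1.5 times, and the other 146 moved further. Of 187 alternatives of log2 ratios, 24 changed sign, over 12 of 23 results. Of these 12, 10 lay inside the range of the others on the main scale, R3 and the cluster among them. Taking reads within 500 kb, all reads, or chromosome reads outside the named regions as the scale moved most log2 ratios together. R2 was -2.10 by all reads and -2.19 by reads outside the regions. In the order of those 3 scales, R1 was 0.12, 0.49 and 0.36, R3 -0.040, 0.28 and 0.18, Rm 0.13, 0.49 and 0.44, and R4 0.24, 0.53 and 0.45. The cluster was -0.042, 0.29 and 0.20, the α-globin gene region 0.032, 0.36 and 0.28, the locus control region 0.18, 0.60 and 0.55, and the Slc25a37 upstream region 0.11, 0.53 and 0.66. The cluster relative to the untargeted viewpoints was -0.19, -0.28 and -0.40, and the 1 kb flank of R2, an alternative chosen after seeing the data, -0.50, -0.17 and -0.26. Scaled to cluster reads outside the elements, Rm was 0.15, and with a 5 kb exclusion zone the gene region was 0.19. The embryonic β-like genes (-0.046) and the Slc25a37 gene body (-0.047) lay above that range and changed sign by reads within 500 kb. Leaving out 1 other library at a time gave -0.12 to 0.17 for R3, 0.15 to 0.28 for Rm, 0.24 to 0.35 for R4, -0.016 to 0.075 for the cluster, 0.072 to 0.12 for the gene region, 0.32 to 0.37 for the locus control region, 0.30 to 0.34 for Slc25a37 upstream, -0.33 to -0.27 for the cluster relative to the untargeted viewpoints and -0.49 to -0.38 for the R2 flank. Fragments within 3 kb of R2 below each other library, 10 of 16, became 2 by all reads and 3 by reads outside the regions. Flanking regions outside the range were 1 by reads within 500 kb and 4 by reads outside the regions, and untargeted ones 7, 8 and 8 by the 3 scales.

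Fragment calls at Hba were 6 lower and 81 higher by all reads, 6 and 61 by reads outside the regions, 7 and 4 in 5 kb bins, 78 and 91 with a minimum of 100 reads, 276 and 280 with 1 read in each library, and 5 and 3 at 2-fold. At Hbb, where 19 were lower and 19 higher, they were 34 and 6 by reads within 500 kb, 8 and 92 by all reads, 10 and 75 by reads outside the regions, 30 and 1 in bins, and up to 29 lower without R3_KO and 29 higher without R3_KO or Rm_KO. At Slc25a37, where 5 were lower and 21 higher, they were 9 and 3, 1 and 65, and 0 and 109 by the 3 scales, 8 and 2 in bins, and 3 lower with the 5 kb zone or without R3_KO or Rm_KO. No paired analysis was possible because each single deletion has 1 library and no test. The R2 block by the rule used for the other elements held the same 3 fragments. Depth limits single fragments: those called lower at Hba outside the cluster had a median of 30 reads in R2_KO, and those called higher 77.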
